A study of Mus musculus with 10 samples.

Results

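The genes described here encode the receptors for Type I and Type II interferon and the JAK kinases and STAT factors that carry their signal in brain endothelial cells (BECs). They were chosen by name, as Ifnar1, Ifnar2, Ifngr1, Ifngr2, Jak1, Jak2, Tyk2, Stat2 and Stat3, and all 9 were among the 14106 genes of the deposited table. RNA was sequenced from cortical BECs of female mice aged 1 year. There were 5 APP/PS1 libraries and 5 libraries of female controls of the same age and C3H/BL6 background, which the labels call WT. APP/PS1 mice (APPswe/PSEN1dE9) carry an amyloid precursor protein that is part mouse and part human and bears the Swedish mutation. They also carry a mutant human presenilin 1. The study's introduction describes both as expressed throughout the body, and the mice deposit Aβ in the brain. The mice were perfused, and BECs were taken with microbeads as CD31+CD45- cells after collagenase and dispase digestion and removal of myelin. It is not given if each library holds RNA of 1 mouse or of several, so each SD and p value describes batch-corrected libraries, not mice.

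Type I interferons (IFN-α and IFN-β) bind a receptor made of IFNAR1 and IFNAR2, and Type II interferon (IFN-γ) binds IFNGR1, which pairs with IFNGR2. TYK2 is held by IFNAR1 and JAK1 by IFNAR2, while JAK1 and JAK2 are held by the IFN-γ receptor chains. The kinases phosphorylate STAT proteins: STAT2 acts with IRF9 in the complex ISGF3, which binds interferon-stimulated response elements (ISRE), and paired STAT proteins bind gamma-activated sites (GAS). STAT3 carries the signal of IL-6-type cytokines through the same kinases. In brain endothelium the pathway is known for antiviral defence and for effects on the barrier.

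Values are log2 CPM, the log2 of read counts scaled to library size, after the authors' correction for batch. Every value converted back to a whole adjusted count, and these counts summed to 22371766 and 22993426 in the replicate 1 libraries and to between 68813558 and 126686149 in the other 8. A control and an APP/PS1 library with the same replicate number form a pair, so there are 5 pairs. The correction set the mean of each pair to nearly the same level, so the libraries of a pair lie as mirror images around it. A gene with the same direction in all 5 pairs thus nearly always has groups that do not overlap. Spread between pairs is missing from a group SD, and the SDs of the 2 groups are not independent. For Stat2 the group SDs were 0.041 and 0.042 log2 units, while the SD of its paired differences was 0.083. The adjusted count behind a value of the 9 genes ran from 392 (Ifngr2) to 49440 (Ifnar1). Markers of the labelled cell type were abundant. All 18 endothelial markers, among them Cldn5, Cdh5 and Pecam1, were in the table and summed to 33350 to 36184 CPM in control libraries and 32907 to 35744 CPM in APP/PS1 libraries. Markers of microglia and leukocytes summed to 19.2 to 29.3 and 18.2 to 27.5 CPM, and 5 of those 18 genes, Aif1, Itgam, Tyrobp, Mrc1 and Ly6g, had no value in the table. Markers of mural cells were lower in APP/PS1 libraries for 9 of 9 measured genes (606 to 1020 CPM in controls and 315 to 609 CPM in APP/PS1, lower in 4 of 5 pairs). Those of oligodendrocytes and their precursors were lower for 12 of 12 measured genes (68.1 to 314 and 47.3 to 162 CPM, lower in 4 of 5 pairs). Neuron markers were lower for 6 of 7 measured genes (132 to 210 and 121 to 151 CPM, lower in 4 of 5 pairs), and astrocyte markers for 9 of 10 (174 to 215 and 172 to 216 CPM, lower in 3 of 5 pairs). The astrocyte sum was carried by Gja1, the 1 marker of that list with a higher mean (7.09 and 7.36 log2 CPM). The median difference of the astrocyte list was −2.60, 0.55, −1.53, −0.74 and −0.20 log2 units in pairs 1 to 5.

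In the comparison of APP/PS1 with control BECs, no receptor, kinase or STAT gene passed the test. The fit was made with limma across all genes, with the replicate number as a block, and the adjustment (Benjamini-Hochberg, threshold 0.05) covered the 14106 genes of the table. It called 0 genes of the table (0.00%), the smallest adjusted p being 0.195, and limma-voom, tried after the data were seen, also called 0. The study's own limma analysis of these libraries did call genes at an adjusted p under 0.05. In simulated data, with spreads drawn around the median over all genes, the fit used here recovered 0 of 200 genes changed by 0.2 log2 units. A missing call is thus not evidence of no change. At an unadjusted p under 0.05 there were 300 higher genes (2.13% of all) and 833 lower genes (5.91%). Of the 9 genes, 7 had a higher and 2 a lower mean in APP/PS1 libraries, beside 6798 higher and 7308 lower over all 14106. The median log2 fold change of the 9 was 0.05, against −0.0038 over all genes. The endothelial markers had a like shift, with 15 higher and 3 lower means and a median of 0.06, so it was not particular to the 9. Stat2 was the 1 gene of the 9 with an unadjusted p under 0.05. The same gene was higher in all 5 pairs, as were 2.99% of all genes, while 5.00% were lower in all 5 pairs. In bulk RNA, a lower level per cell cannot be told apart from a smaller share of the cells that express a gene.

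**Figure D1:**
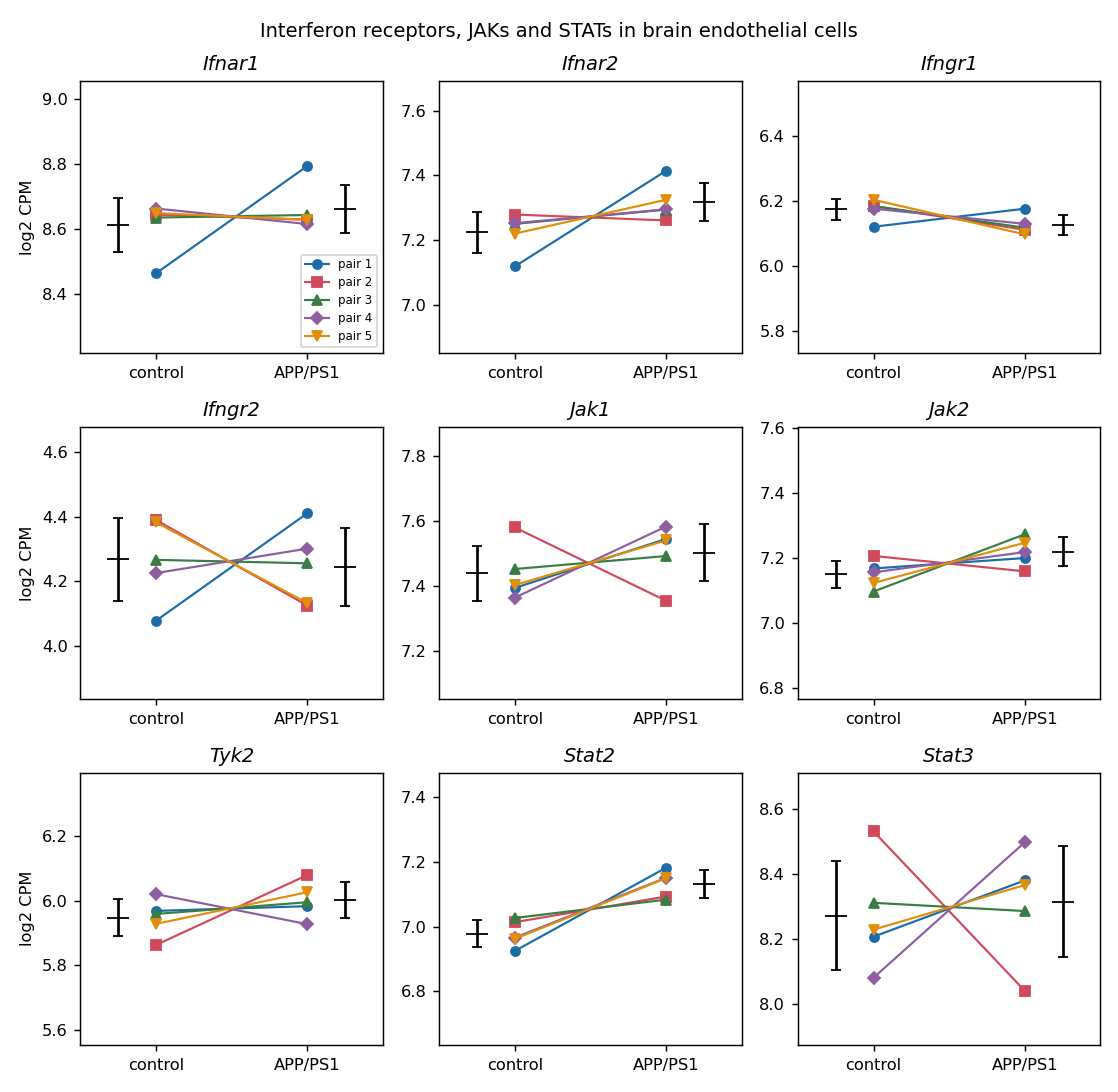
Log2 CPM (vertical axis, each panel spanning the same range of log2 units) of the 9 genes in control and APP/PS1 libraries. A line joins the libraries of a pair, and black bars give the mean and SD of 5 libraries after batch correction, without the spread between pairs. The Stat2 lines all run upward, the Stat3 lines cross most widely, and pair 1 stands apart for Ifnar1.

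Ifnar1 encodes the chain of the Type I receptor that holds TYK2 and lies on chromosome 16 at 91485238 to 91507441 of GRCm38 (mm10), on the plus strand. Its level in control replicates 1 to 5 was 8.46, 8.64, 8.64, 8.66 and 8.65 log2 CPM. In APP/PS1 replicates 1 to 5 it was 8.79, 8.63, 8.64, 8.62 and 8.63 log2 CPM. Pair 1 held both the lowest and the highest value, and the other 8 libraries lay within 0.05 log2 units of each other. The log2 fold change (APP/PS1 minus control) was 0.05 with an SE of 0.070 and a 95% interval of −0.12 to 0.22 (limma, adjusted p = 0.898). Ifnar1 was higher in 2 of 5 pairs, by 0.33 in pair 1 and by 0.01 in pair 3. Without pair 1 the log2 fold change was −0.02 (limma adjusted p = 0.9998), so the positive mean rests on those 2 libraries, which also had the lowest totals. By qPCR, the study reported higher IFNAR1 in cortical BECs of APP/PS1 females of this age. It also reported stronger IFNAR1 staining of endothelial cells in the cortex. These are other measures than RNA-seq, and why they differ from the values here was not tested.

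The promoter of Ifnar1 in the RefSeq table is shown because it holds a GAS core, TTCNNNGAA, across the start of transcription, 5 bases before it. The window covers 116 bases before the start and 4 after it (GRCm38.p6, plus strand, chr16:91485099-91485218), with the GAS core in capitals.
Ifnar1: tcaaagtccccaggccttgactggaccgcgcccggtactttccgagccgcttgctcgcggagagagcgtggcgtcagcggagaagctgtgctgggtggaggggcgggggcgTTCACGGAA
The core reads the same on both strands. It was found in 8.30% of 32851 RefSeq promoters (250 bases before to 50 bases after the start), and a match is a description of letters, not of binding.

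Ifnar2 encodes the chain that binds Type I interferon most tightly and holds JAK1, and lies on chromosome 16 at 91372783 to 91405589, plus strand. The control libraries had 7.12, 7.28, 7.25, 7.25 and 7.22 log2 CPM, and the APP/PS1 libraries 7.41, 7.26, 7.29, 7.30 and 7.32 log2 CPM. As for Ifnar1, the control and APP/PS1 libraries of pair 1 were the lowest and highest of the 10, and the groups overlapped. The log2 fold change was 0.09 (SE 0.059, 95% interval −0.05 to 0.24, adjusted p = 0.795 by limma), with a higher value in 4 of 5 pairs, and it was 0.04 without pair 1. Part of Ifnar2 is also annotated as Gm21970 on the same strand, a gene that was not in the table, and how reads in that stretch were counted is not stated. Its promoter holds a GAS core 214 bases before the start, in capitals here (GRCm38.p6, plus strand, chr16:91372533-91372652).
Ifnar2: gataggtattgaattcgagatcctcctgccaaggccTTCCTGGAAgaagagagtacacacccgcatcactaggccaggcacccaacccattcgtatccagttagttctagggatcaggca
No GAS core was found in the promoters of the other 7 genes.

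Ifngr1 encodes the chain of the Type II receptor that binds IFN-γ (chromosome 10, 19591949 to 19610229, plus strand). Its control values were 6.12, 6.19, 6.19, 6.18 and 6.20 log2 CPM, and its APP/PS1 values 6.18, 6.11, 6.12, 6.13 and 6.10 log2 CPM. Pair 1 ran against the other 4, in which the APP/PS1 library was lower by 0.05 to 0.11. The mean difference was −0.05 on the log2 scale (SE 0.045, 95% interval −0.16 to 0.06, limma adjusted p = 0.851), and −0.07 without pair 1. This was the gene of the 9 with the smallest spread, with an SD of 0.062 over the 5 paired differences, against a median SD of 0.110 in 3713 genes within 1 log2 unit of its level.

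Ifngr2 encodes the chain that brings JAK2 to the Type II receptor and sits beside Ifnar1 (chromosome 16, 91547072 to 91565623, plus strand). The control libraries had 4.08, 4.39, 4.27, 4.23 and 4.38 log2 CPM, and the APP/PS1 libraries 4.41, 4.13, 4.26, 4.30 and 4.13 log2 CPM. It was higher by 0.33 in pair 1 and lower by 0.26 and 0.25 in pairs 2 and 5, so the groups overlapped over nearly their whole range. The fitted log2 fold change was −0.02 (SE 0.0997, 95% interval −0.27 to 0.22, limma adjusted p = 0.969), and it turned positive without pair 2 (0.04) or pair 5 (0.03).

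**Figure D2:**
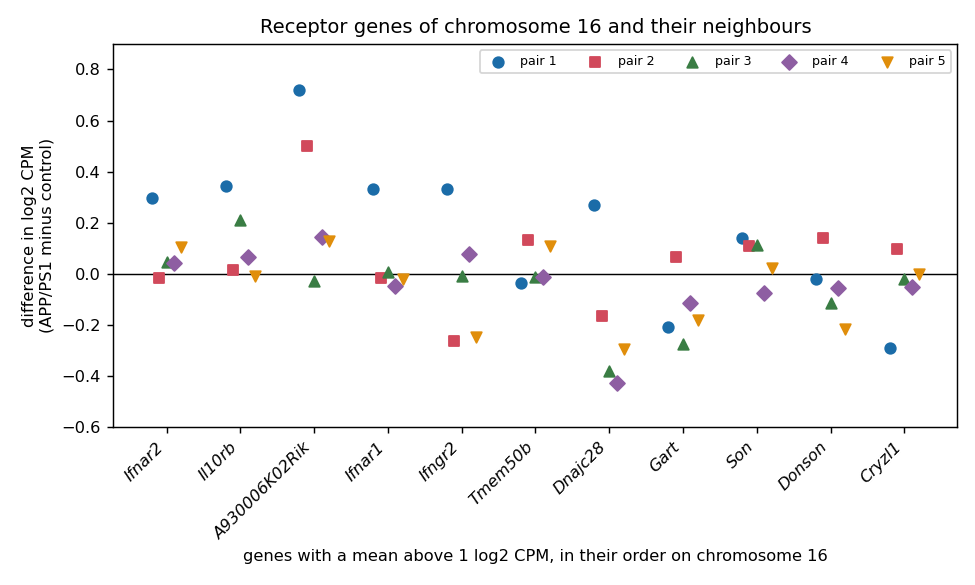
Difference in log2 CPM between the APP/PS1 and control library of each pair (vertical axis) for the 11 genes with a mean above 1 log2 CPM around the interferon receptors, in their order on chromosome 16 (horizontal axis, not to scale). In pair 1 the 4 receptor genes lie between 0.30 and 0.34, Tmem50b, next to Ifngr2, at −0.04 and Dnajc28 at 0.27.

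Ifnar2, Ifnar1 and Ifngr2 lie side by side on chromosome 16 with Il10rb, which encodes a receptor chain for IL-10 and for Type III interferon. The window looked at, 91372783 to 91695623 of GRCm38, held 13 measured genes and was chosen after the values were seen. In pair 1 the APP/PS1 library was higher by 0.30 for Ifnar2, 0.34 for Il10rb, 0.33 for Ifnar1 and 0.33 for Ifngr2. The noncoding A930006K02Rik, between Il10rb and Ifnar1, was higher by 0.72 in that pair and had a mean of 2.00 log2 CPM. Of the genes above 1 log2 CPM that follow Ifngr2, pair 1 differed by −0.04 for Tmem50b, 0.27 for Dnajc28, −0.21 for Gart, 0.14 for Son, −0.02 for Donson and −0.29 for Cryzl1. A pair 1 difference larger than that of Ifnar1 was seen in 7.62% of 801 genes of like level, larger than that of Ifnar2 in 7.41% of 2322, and larger than that of Ifngr2 in 4.37% of 4030. In the other 4 pairs the 4 receptor genes differed by −0.26 to 0.21, with no shared direction. None of the 13 genes passed the test, and Il10rb had a log2 fold change of 0.12 (SE 0.068, limma adjusted p = 0.754).

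The 3 kinases all had a slightly higher mean in APP/PS1 libraries, each in 4 of 5 pairs, and none passed the test. Jak1 encodes the kinase shared by both interferon receptors (chromosome 4, 101152367 to 101265282, minus strand). Its control values were 7.39, 7.58, 7.45, 7.36 and 7.403 log2 CPM and its APP/PS1 values 7.55, 7.36, 7.49, 7.58 and 7.54 log2 CPM. Pair 2 ran the other way by 0.23, and the groups overlapped. The log2 fold change was 0.06 (SE 0.076, 95% interval −0.12 to 0.25, limma adjusted p = 0.882), and it was 0.14 without pair 2 (adjusted p = 0.350) and 0.03 without pair 4.

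Jak2 encodes the kinase of the Type II receptor and of many other cytokine receptors (chromosome 19, 29251828 to 29313080, plus strand). It had 7.17, 7.21, 7.10, 7.16 and 7.12 log2 CPM in control libraries and 7.20, 7.16, 7.27, 7.22 and 7.25 log2 CPM in APP/PS1 libraries. The largest difference was 0.18, in pair 3, and the groups overlapped. On the log2 scale the fold change was 0.07 (SE 0.050, 95% interval −0.05 to 0.19, limma adjusted p = 0.822), or 0.04 without pair 3.

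Tyk2 encodes the kinase of IFNAR1 (chromosome 9, 21104068 to 21131243, minus strand). The control libraries had 5.97, 5.86, 5.96, 6.02 and 5.93 log2 CPM, and the APP/PS1 libraries 5.98, 6.08, 5.995, 5.93 and 6.03 log2 CPM. Pair 2, in which Jak1 was lower, gave the largest difference in Tyk2, 0.22, and in pair 4 the APP/PS1 library was lower by 0.09. Its log2 fold change was 0.05 (SE 0.057, 95% interval −0.09 to 0.20, limma adjusted p = 0.868), or 0.01 without pair 2 and 0.09 without pair 4. An antisense gene, 1700084C06Rik, spans 24326 bases of Tyk2, introns included, and was counted as a gene of its own. It is not stated whether counting used the strand, so reads in any exon bases shared by the 2 genes cannot be assigned. How many exon bases they share was not computed.

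Stat2 encodes the STAT that Type I and Type III interferon use in ISGF3 (chromosome 10, 128270559 to 128292849, plus strand). Its control values were 6.92, 7.01, 7.03, 6.97 and 6.96 log2 CPM, and its APP/PS1 values 7.18, 7.09, 7.08, 7.15 and 7.15 log2 CPM. Every APP/PS1 library lay above every control library, as for 2.91% of all genes (4.96% lay below). The paired differences were 0.26, 0.08, 0.06, 0.18 and 0.19. The log2 fold change was 0.15 (SE 0.050, 95% interval 0.03 to 0.28) or 11.2% in level, with an unadjusted p of 0.0225 and an adjusted p of 0.569 in the limma fit. An exact two-sided sign-flip permutation test over the 5 pairs gave p = 0.0625, the smallest value that 5 pairs allow. Without the replicate block the adjusted p of Stat2 was 0.0245 in a fit that called 1.37% of all genes as higher and 3.23% as lower. That fit does not count the degrees of freedom that the batch correction used. Summed markers of mural cells, oligodendrocytes and neurons were lower in 4 of these 5 pairs and those of astrocytes in 3. The median of the astrocyte list was lower in each pair but pair 2. The part of these markers in the Stat2 value was not tested.

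The Stat2 promoter is shown because it was the 1 promoter of the 9 with an ISRE core, GAAANNGAAA on either strand, which begins 222 bases before the start and lies on the minus strand, so that it reads TTTCNNTTTC here. It is set beside the promoter of Ifit1, a gene that encodes an antiviral protein and is a standard target of ISGF3, which holds 2 such cores. Capitals mark the cores (GRCm38.p6, plus strand, chr10:128270248-128270367 and chr19:34640739-34640858).
Stat2: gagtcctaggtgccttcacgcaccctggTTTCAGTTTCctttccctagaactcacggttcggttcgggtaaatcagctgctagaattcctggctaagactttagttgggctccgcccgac
Ifit1: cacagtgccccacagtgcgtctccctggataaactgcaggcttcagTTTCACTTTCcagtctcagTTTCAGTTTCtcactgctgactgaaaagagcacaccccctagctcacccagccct
An ISRE core was found in 3.44% of 32851 promoters and in 2.93% of the 12572 promoters of measured genes.

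Stat3 encodes the STAT of IL-6-type cytokines (chromosome 11, 100885098 to 100939540, minus strand). In control libraries it had 8.21, 8.53, 8.31, 8.08 and 8.23 log2 CPM, and in APP/PS1 libraries 8.38, 8.04, 8.29, 8.50 and 8.37 log2 CPM. It was lower by 0.49 in pair 2 and higher by 0.42 in pair 4, and the groups overlapped over nearly their whole range. Its log2 fold change was 0.04 (SE 0.131, 95% interval −0.28 to 0.37, limma adjusted p = 0.959). It was −0.05 without pair 4 and 0.18 without pair 2. The SD of its paired differences, 0.338, was above that of 92.9% of 1080 genes of like level. Stat3 overlaps Stat5a by 72 bases on the other strand.

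**Figure D3:**
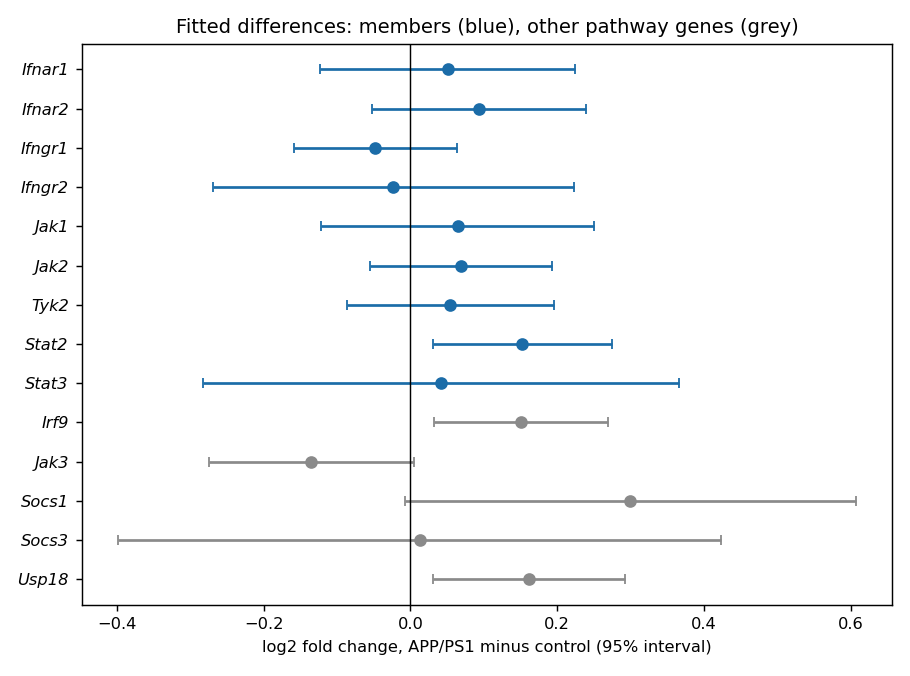
Log2 fold change of each gene, APP/PS1 minus control (horizontal axis), with its 95% interval from the limma fit with the replicate block, for the 9 genes (blue) and 5 other genes of the pathway (grey). The intervals of Stat2, Irf9 and Usp18 lie above 0 before adjustment, and no gene passed after it.

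Levels were compared between genes per kb of exon. Ifnar1 was the highest of the 9, with 6.04 ± 0.083 log2 CPM per kb in the control group and 6.09 ± 0.075 in the APP/PS1 group (SD, n = 5), above 96.2% of all measured genes. Ifnar2 followed at 5.49 ± 0.062 and 5.58 ± 0.058 log2 CPM per kb, then Stat3 at 5.02 ± 0.17 and 5.06 ± 0.17. Jak2, Ifngr1, Jak1 and Stat2 lay close together, with control means of 4.82, 4.67, 4.59 and 4.41 log2 CPM per kb. Tyk2 had 3.17 ± 0.058 and 3.22 ± 0.056, and Ifngr2 was the lowest at 2.35 ± 0.13 and 2.33 ± 0.12, above 49.2% of genes. The order held in all 10 libraries for 5 of the 8 neighbouring steps. Ifngr1 and Jak1 did not differ beyond their spread, being in this order in 5 of 10 libraries, and Stat3 over Jak2 and Jak1 over Stat2 each held in 9 of 10. With the length of the longest transcript in place of all exons, Ifnar1 stayed first and Ifngr2 and Tyk2 last, while Stat3 came before Ifnar2 and Jak1 before Ifngr1, Stat2 and Jak2.

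**Figure D4:**
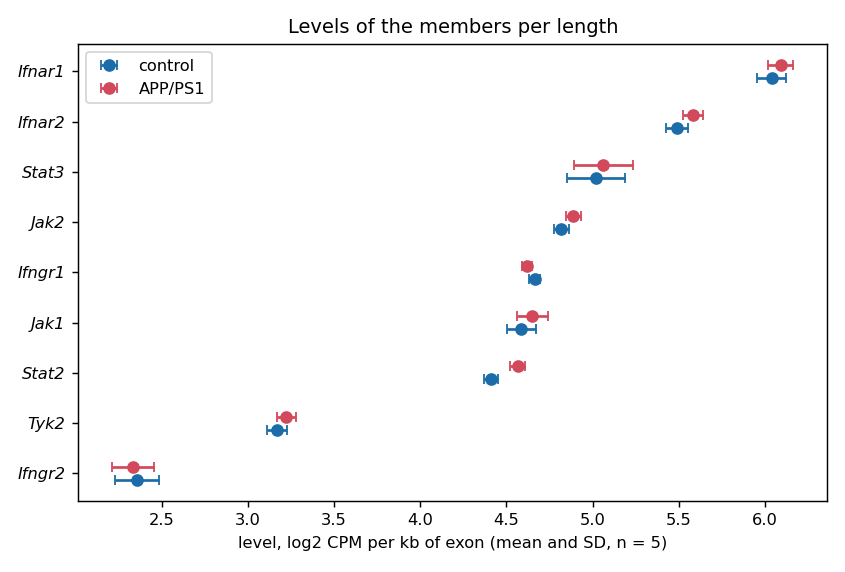
Level of each gene in log2 CPM per kb of exon (horizontal axis) in control (blue) and APP/PS1 (red) libraries. Points and bars give the mean and SD of 5 libraries after batch correction, without the spread between pairs. Ifnar1 and Ifnar2 lie highest, Tyk2 and Ifngr2 lowest, and Stat2 is the gene whose mean ± SD ranges lie apart in the 2 groups.

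Some genes outside the pathway had paired differences like those of a member. The measure was the root mean square distance over the 5 paired differences, among genes within 1 log2 unit of the member's level. The nearest genes lie under the median distance by the way they were picked. For Ifnar1 the nearest of 801 genes were Arhgef15 (0.056), Tmpo (0.061) and Dock6 (0.068), against a median distance of 0.187. For Stat2 the nearest of 2606 genes were Parp14 (0.040), Btaf1 (0.051) and Tbc1d1 (0.055), against a median of 0.183. Parp14, an interferon-stimulated gene, is also in the list of ISGF3 targets described below.

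No interferon gene could be followed, since none of the 15 listed ligand genes, Ifnb1 and Ifng among them, had a value in the table. Of 5 other measured JAK, STAT and IRF9 genes described here, 3 had a higher and 2 a lower mean, and none passed the test. Irf9, the DNA-binding partner of STAT2, had 6.77, 6.84, 6.84, 6.82 and 6.88 log2 CPM in controls and 7.04, 6.97, 6.98, 6.998 and 6.93 log2 CPM in APP/PS1 libraries. Its groups did not overlap, as for Stat2, with the APP/PS1 libraries above, as for 2.91% of all genes. Its log2 fold change was 0.15 (SE 0.048, limma adjusted p = 0.569, and 0.0214 without the replicate block). Jak3, the kinase of receptors with the common gamma chain, was lower in all 5 pairs by 0.02 to 0.27, as were 5.00% of all genes. The log2 fold change of Jak3 was −0.14 (limma adjusted p = 0.637). By gene span, Irf9 shares 123 bases with Rnf31 and Jak3 1362 bases with Insl3, both on the same strand. Reads in any exon bases shared there cannot be assigned.

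Among 25 measured receptors of other cytokines, 10 had a higher and 15 a lower mean, the median log2 fold change was −0.06, and none passed the test. None was higher in all 5 pairs and 3 were lower: Ghr, the growth hormone receptor (log2 fold change −0.16), Il6ra, which binds IL-6 and hands it to the STAT3 pathway (−0.17), and Il27ra, a chain of the IL-27 receptor (−0.27). Their limma adjusted p values were 0.563, 0.569 and 0.593. Among all genes, 2.99% were higher and 5.00% lower in all 5 pairs. Il6ra had 6.97, 6.91, 7.06, 6.98 and 6.99 log2 CPM in control libraries and 6.82, 6.88, 6.74, 6.82 and 6.81 log2 CPM in APP/PS1 libraries. Every APP/PS1 library lay below every control library, as for 4.96% of all genes.

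Of 19 measured inhibitors of the pathway, 15 had a higher and 4 a lower mean, the median log2 fold change was 0.03, and none passed. Usp18, an ISG15 protease that also blocks JAK1 at IFNAR2, had 5.21, 5.21, 5.15, 5.18 and 5.28 log2 CPM in controls and 5.36, 5.36, 5.43, 5.40 and 5.29 log2 CPM in APP/PS1 libraries. It was the 1 inhibitor higher in all 5 pairs, as were 2.99% of all genes. Its log2 fold change was 0.16 (SE 0.053, limma adjusted p = 0.569, and 0.0295 without the replicate block). A noncoding gene on the other strand, Gm44148, spans 15715 bases of Usp18. Socs1, which blocks JAK kinases after interferon, was weakly expressed, at 2.30, 2.59, 2.23, 2.21 and 2.30 log2 CPM in controls and 2.66, 2.34, 2.73, 2.75 and 2.66 log2 CPM in APP/PS1 libraries. It was lower in pair 2 and higher in the other 4, with a log2 fold change of 0.30 (SE 0.124, limma adjusted p = 0.632). Its promoter holds 2 overlapping ISRE cores, 83 and 77 bases before the start, in capitals here (GRCm38.p6, minus strand, chr16:10785552-10785671).
Socs1: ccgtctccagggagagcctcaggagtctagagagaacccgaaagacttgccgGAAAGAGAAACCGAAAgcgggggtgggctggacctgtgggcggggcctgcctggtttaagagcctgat
Socs3, the inhibitor that STAT3 induces, had paired differences of −0.15, −0.54, −0.10, 0.62 and 0.23, with a log2 fold change of 0.01 (SE 0.166, limma adjusted p = 0.990), or −0.0031 when libraries were scaled by endothelial markers. Of 19 cofactors and adaptors, 10 had a higher and 9 a lower mean, and none passed. Sh2b2, an adaptor that binds JAK2, was the 1 gene with the same direction in all 5 pairs. It was lower in all 5, as were 5.00% of all genes. Sh2b2 was weakly expressed, with 1.08 ± 0.013 log2 CPM in the control group and 0.80 ± 0.028 in the APP/PS1 group (SD, n = 5). These SDs are of values after the batch correction, and the smallest adjusted count was 39, so they do not measure how reproducible Sh2b2 is. Its log2 fold change was −0.28 (SE 0.041, limma adjusted p = 0.303).

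**Figure D5:**
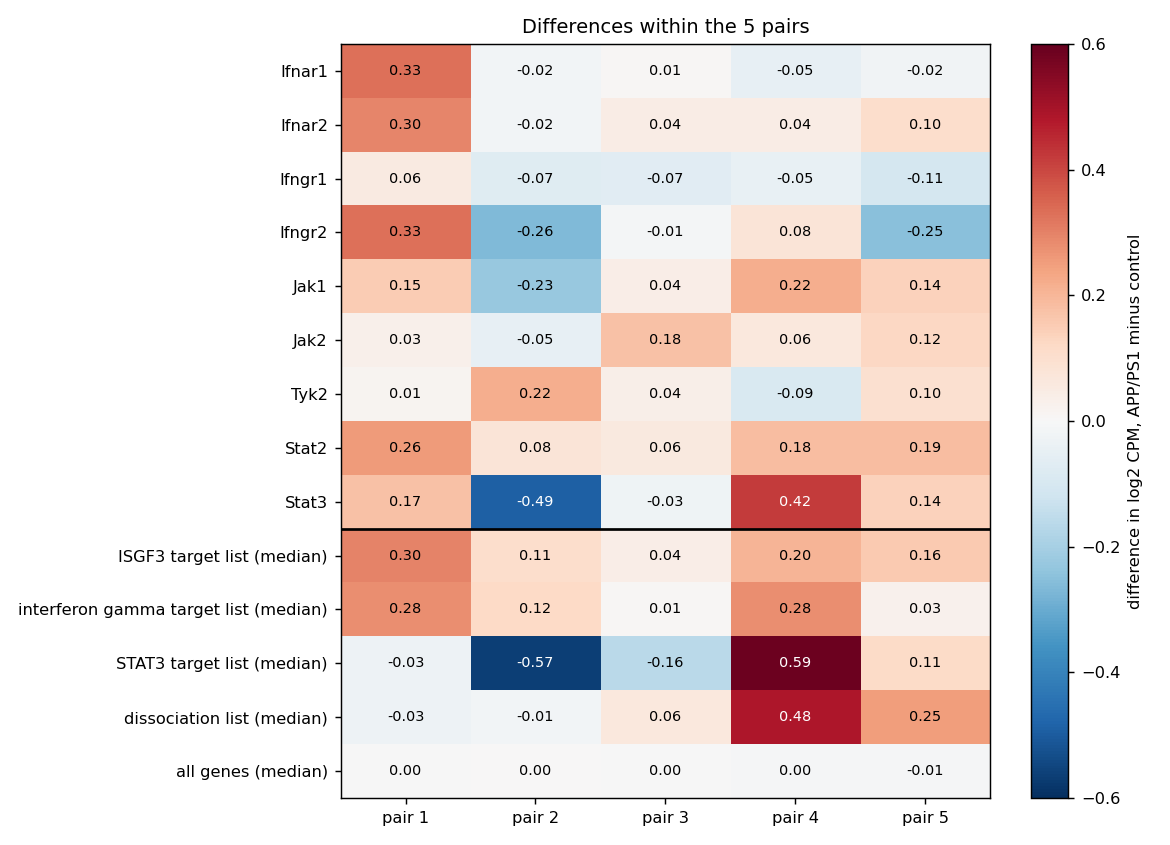
Difference in log2 CPM between the APP/PS1 and control library of each pair (color and number) for the 9 genes and, under the line, the median over lists of downstream and dissociation genes and over all genes. Stat2 and the ISGF3 list are positive in all 5 pairs, and so is the IFN-γ list, though only by 0.01 in pair 3. Stat3 and the STAT3 list are most negative in pair 2 and most positive in pair 4.

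Genes downstream of the receptors were described by list, and none of their members passed the test. Of 23 measured ISGF3 targets, 21 had a higher and 2 a lower mean in APP/PS1 libraries, and 12 were higher in all 5 pairs. Over all 14106 genes, 6798 had a higher and 7308 a lower mean, and 2.99% were higher in all 5 pairs. The median log2 fold change was 0.17, and the median of the list was positive in each pair, from 0.04 in pair 3 to 0.30 in pair 1. The study picked out interferon-response genes in these same libraries, so these counts are not independent evidence of the direction. Ifit1 had 6.06, 6.07, 6.08, 6.06 and 6.07 log2 CPM in controls and 6.42, 6.400, 6.397, 6.42 and 6.402 log2 CPM in APP/PS1 libraries. Its paired differences were thus close to equal, from 0.32 to 0.36, with a log2 fold change of 0.34 (SE 0.039, limma adjusted p = 0.238). These are batch-corrected values with a smallest adjusted count of 1547. The part of the correction in their evenness was not tested. Ifit3, of the same family, had a log2 fold change of 0.31, Isg15, a ubiquitin-like protein, of 0.34, and Rsad2, the antiviral enzyme viperin, of 0.42. Their limma adjusted p values were 0.399, 0.451 and 0.537. Of 16 genes of this list with a RefSeq promoter, 8 held an ISRE core.

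Of 16 measured IFN-γ targets, 13 had a higher and 3 a lower mean, with a median log2 fold change of 0.14. Higher in all 5 pairs were 3 of them, beside 2.99% of all genes. Those 3 were the GTPases Gbp3 (0.16), Irgm1 (0.17) and Iigp1 (0.15), with limma adjusted p values of 0.544, 0.592 and 0.622. Many of these genes also respond to Type I interferon. The median of the list was 0.28 in pairs 1 and 4, 0.12 in pair 2, 0.01 in pair 3 and 0.03 in pair 5. Of 13 genes of this list with a RefSeq promoter, 7 held an ISRE core and 6 a GAS core.

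Of 20 measured STAT3 targets, 11 had a higher and 9 a lower mean. The median log2 fold change of these targets was 0.03. The median of the list differed by −0.03, −0.57, −0.16, 0.59 and 0.11 in pairs 1 to 5, beside 0.17, −0.49, −0.03, 0.42 and 0.14 for Stat3 itself. Junb, an AP-1 factor, and Bcl2l1, an inhibitor of apoptosis, were higher in all 5 pairs (log2 fold changes 0.27 and 0.25), and Lrg1, a secreted protein that acts on TGF-β signalling in vessels, was lower in all 5 (−0.64). Their limma adjusted p values were 0.569, 0.571 and 0.537. Among all genes, 2.99% were higher and 5.00% lower in all 5 pairs. Immediate early and heat shock genes, known to be induced by tissue digestion, had medians of −0.03, −0.01, 0.06, 0.48 and 0.25 in pairs 1 to 5, and 10 of 10 had a higher mean in APP/PS1 libraries. Their part in the values of Stat3 and Socs3 was not tested, and Junb is in both lists.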

How the data were processed

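Bulk RNA-seq of CD31+CD45- BECs was analysed in 10 libraries. The authors used STAR (mm10) for alignment, HTSeq-count for counts per gene, edgeR for filtering and scaling and ComBat of sva for batch, and deposited log2 CPM of 14106 genes. Tool versions are not given in the sources used here. The 10 files per library equalled the columns of the table. Values converted back to whole adjusted counts (100% within 0.01), and since these are no longer reads, counting error was not computed. Which order of correction and scaling gave whole counts is not settled here.

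R 4.3.3 with limma 3.58.1 (lmFit, eBayes) was fitted to the log2 values with genotype and 5 replicate blocks, leaving 4 residual degrees of freedom. The pairing is that of the study's 5 batches. The labels give 4, with replicates 4 and 5 in one. Across 10873 genes, the rank correlation of the deviations of paired libraries was −0.999 to −0.989, a sign that batch centring fixes. Symbols, positions and exon lengths came from GENCODE M21, and promoters from RefSeq (GRCm38.p6), which held none for Usp18. Named genes were the 9 members, up to 4 genes per list with the smallest p among those with 1 direction in all 5 pairs, Irf9, Socs1, Socs3 and Usp18, and the 3 genes nearest to Ifnar1 and Stat2. Members and lists were chosen with earlier results of these data known, and 1 gene of the rule is not reported here. The fit was tested on simulated data in which 200 of 14106 genes were changed. It recovered 0 of the 200 at a change of 0.2 log2 units, 118 at 0.5 and 194 at 1, with 1, 9 and 14 false calls. The fitted changes of the 9 genes were all smaller than 0.2. Simulated spreads were drawn around the median SD of paired differences over all genes, 0.173. Genes of like level to the 9 had smaller medians, from 0.110 (Ifngr1) to 0.149 (Ifngr2), and recovery at such spreads was not simulated. Alternatives were other blocks, priors, scalings, filters and thresholds, a pseudocount of 1 CPM, and each replicate left out.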

Additional observations from a re-analysis of the deposited data

Results flagged for a closer look

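The values of each of the 9 genes were searched in each group of 5 libraries, 18 groups in all, for a library far from the rest, of which chance gives about 1 in 20. Ifnar1 stood apart in both groups. The control replicate 1 library, at 8.46 log2 CPM, lay 0.172 under the next, a gap of 0.860 of the range, and the APP/PS1 replicate 1 library, at 8.79 log2 CPM, lay 0.151 over the next, a gap of 0.844 of the range, both past Dixon's critical ratio of 0.71. Since the batch correction makes the libraries of a pair mirror images, these are not independent of each other.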

How the results depend on the processing

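Without the replicate block, 648 genes were called (193 higher and 455 lower), among them 1 of the 9 (Stat2), Irf9 (log2 fold change 0.15) and Usp18 (0.16), with Stat2 at 0.15. With the 4 batches of the labels, 1 gene was called, and with a replicate left out between 0 and 5 (5 without replicate 2 and 1 without replicate 5), none of them among the 9. A trend or a robust prior, median or endothelial marker scaling, log2(CPM + 1), a mean of at least 1 log2 CPM, a threshold of 0.1 and limma-voom gave 0 calls. Of 126 values of the 9 genes recomputed over 14 settings, 121 kept their direction and side of the threshold. That count includes settings in which the fold change could not move by design. These were the fits without the block, with the 4 batches, with a trend or a robust prior, and with the filter on the mean. Over the fits that left out 1 replicate, the log2 fold change ranged from −0.019 to 0.076 for Ifnar1, from −0.11 to 0.037 for Ifngr2, from −0.052 to 0.18 for Stat3 and from −0.14 to 0.15 for Socs3. It ranged from 0.043 to 0.12 for Ifnar2, from −0.073 to −0.033 for Ifngr1, from 0.026 to 0.14 for Jak1, from 0.043 to 0.099 for Jak2, from 0.014 to 0.091 for Tyk2 and from 0.13 to 0.18 for Stat2. Socs3 was also negative under endothelial marker scaling (−0.0031) and limma-voom (−0.0074). Such turns were of fold changes near 0, and the cause was not tested. The adjusted p of Stat2 ranged from 0.0245 to 0.939 over all settings. Totals of adjusted counts were lowest in pair 1, and reads were not analysed here.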
